A study of Mus musculus with 10 samples.

Results

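The complement system is described here through 32 genes, chosen by name, out of 55487 genes counted in the livers of old mice. All 32 were present in the count table and all 32 passed the filter on low counts. By the textbook source of their transcripts in mouse liver, 22 are made mainly by hepatocytes, 7 by macrophages (the C1q chains C1qa, C1qb and C1qc, Fcna, Cfp, C3ar1 and C5ar1) and 1 by adipocytes (Cfd), and 2 are membrane regulators of many cells (Cd55 and Cd59a). Poly(A) RNA was sequenced from livers of C57B/6J mice (strain as labelled) aged 22 months on normal chow. Of the 10 libraries, 5 came from Arg2 fl/fl mice (Flox) and 5 from co-housed littermates with Arg2 deleted in hepatocytes (LKO). Arg2 encodes mitochondrial arginase. The Cre driver is not given in the sources used here, and no label says that each library is a separate mouse, so p-values measure the spread between libraries, part of which may be technical.

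Complement is a cascade of plasma proteins that tags microbes and damaged cells and punches pores in membranes. It starts in 3 ways: C1q with its proteases C1r and C1s (classical), mannose-binding lectins and ficolins with MASP proteases (lectin), or spontaneous turnover of C3 helped by factors B and D (alternative). All of these cut C3 and then C5, after which C6 to C9 form the membrane attack complex, and regulators such as factor I, C4b-binding protein and C1 inhibitor hold the cascade back. Hepatocytes secrete most of these proteins, several as part of the acute phase response to inflammation, whereas C1q comes mainly from macrophages, which in liver are chiefly Kupffer cells.

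Total counts per library ranged from 43331354 to 54951415. Over the 45 pairs of libraries, none agreed within sampling noise (mean chi-square per gene from 41.2 to 768). The Arg2 gene had 0, 4, 0, 5 and 0 counts in Flox 1 to 5 and 0, 0, 0, 4 and 6 in LKO 1 to 5, where a count of 0 allows up to 3, so these libraries do not check the deletion. The 6 hepatocyte markers summed to 51834 to 120811 CPM (counts per 1000000, TMM-scaled) in Flox and 126460.0 to 154517 CPM in LKO, lowest in Flox 3. Alb, which made up most of this sum, was at 35269 to 93497 CPM in Flox and 99575 to 122618 CPM in LKO. For each of the other markers the groups overlapped, and Tdo2 was lowest in Flox 4. Acute phase genes differed widely between livers. An acute phase score, the mean log2 CPM of 21 acute phase genes with no complement gene among them, was 7.97, 10.49, 11.35, 9.76 and 7.45 in Flox 1 to 5 and 7.35, 9.07, 8.40, 7.99 and 7.73 in LKO 1 to 5. A Kupffer score, the same over 10 Kupffer cell markers, was 3.60, 4.09, 3.94, 5.14 and 2.19 in Flox 1 to 5 and 1.80, 4.83, 3.85, 3.45 and 2.70 in LKO 1 to 5. Flox 2, 3 and 4 had the highest acute phase scores and Flox 4 and LKO 2 the highest Kupffer scores. The 2 scores had a Pearson r of 0.68 across the 10 libraries, given as a description. LKO columns are called by the number in their column name, which does not match an LKO title.

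The share of complement transcripts in the liver's messenger RNA varied between libraries. Scaled for exon length to TPM, transcripts per 1000000, the 32 genes together made up 1.29% to 2.72% of the total, with a mean of 1.79% ± 0.511 (SD, n = 10 libraries). The 22 hepatocyte-made genes gave 1.27% to 2.68% and the 7 macrophage-made genes 0.00910% to 0.0583%. C3, the central protein that every route cuts (chromosome 17, 57203970 to 57228136, GRCm38), was the most abundant at 5467 ± 2613 TPM and stood 27th of 32898 detected genes by mean. Vtn, encoding vitronectin, which blocks the attack complex, followed at 3394 ± 792 TPM. Next came the attack complex inhibitor clusterin (Clu, 1564 ± 553 TPM), C1 inhibitor (Serping1, 1074 ± 429 TPM) and the C3b-cutting protease factor I (Cfi, 947 ± 195 TPM). C3 exceeded Vtn, Vtn exceeded Clu and Clu exceeded Serping1 in 10 of 10 libraries. From Serping1 to C4b the order was not separable, since Serping1 exceeded Cfi in 4 of 10 libraries, Cfi exceeded Mbl2 in 6 and Mbl2 exceeded C4b in 7. At the other end, the anaphylatoxin receptors C3ar1 and C5ar1 stood at 0.834 ± 0.408 and 0.540 ± 0.376 TPM.

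**Figure D1:**
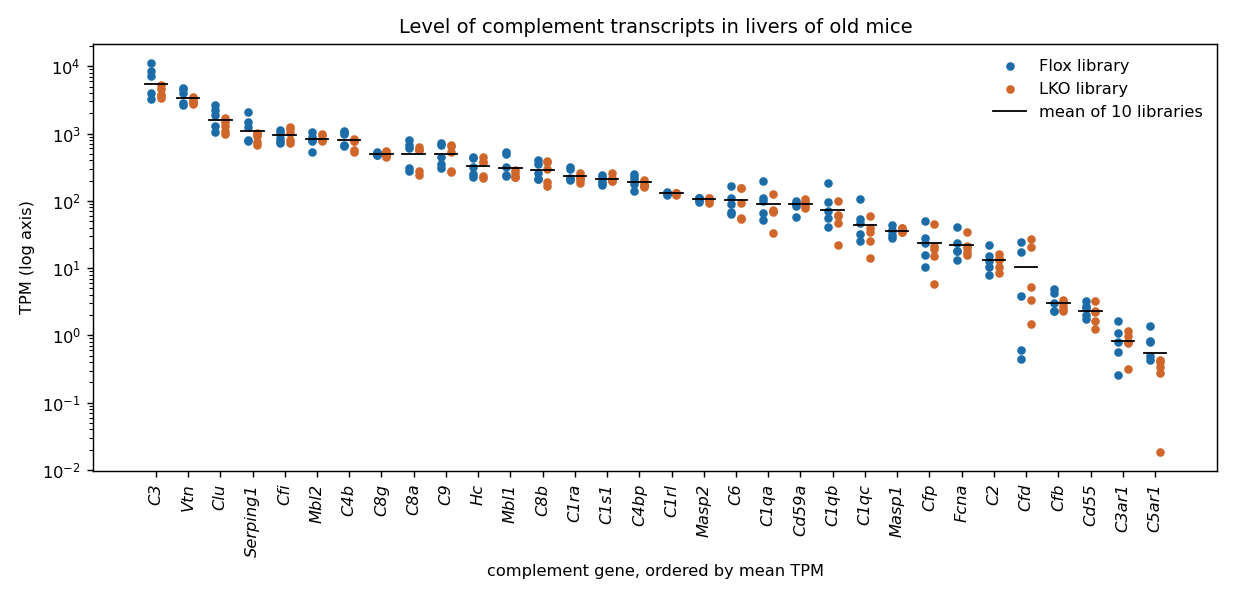
Level of 32 complement genes, ordered by mean. The vertical axis is TPM on a log axis, each point is a library (blue Flox, orange LKO) and each black line is the mean of 10 libraries. Levels ran from 5467 TPM for C3 to 0.540 TPM for C5ar1, and the points of Cfd run from 0.451 to 26.6 TPM.

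Some members share exons with other genes, which bears on their level. Factor B (Cfb), the protease subunit of the alternative C3 convertase, was at only 3.08 ± 0.875 TPM, and its classical counterpart C2 at 13.1 ± 4.12 TPM. In the GENCODE M21 annotation, 79.5% of the exon bases of Cfb and 42.8% of those of C2 also belong to Gm20547, a gene on the same strand that had 0 counts over the 10 libraries. How the counting treated reads shared by such genes is not given in the sources used here, so the levels of Cfb and C2 relative to other genes are uncertain. Masp2 shares 54.9% of its exon bases with Tardbp on the opposite strand, and the use of strand is not stated either. C4b has a close copy in C4a, and C1ra and C1s1 in C1rb and C1s2, so their reads may be lost or split.

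C3, clusterin, C1 inhibitor and 5 other hepatocyte-made members rose with the acute phase score. In a fit across all 15894 genes tested, with the group in the model, 8 of the 32 members rose with the score and 0 fell, at an adjusted p under 0.05 by edgeR's quasi-likelihood test. Over all genes tested, 2.58% rose and 3.58% fell, and 20 of the rising genes were among the 21 that make up the score. Scaled by library totals in place of TMM, 442 genes rose and 406 fell, against 410 and 569, and the same 8 members were called. The summed hepatocyte markers, most of them Alb, were lowest in Flox 3, the library with the highest score. Their part in these slopes was not tested. The 8 were C3, Clu, Serping1, Mbl1, C2, Cfb, Vtn and C4b, all hepatocyte-made. The median slope of the members was 0.19 log2 units per unit of score, against 0.0036 over all genes, and 7 of 32 members had a slope below 0, against 48.7% of all genes. With the Kupffer score in the model the members' median was 0.035, and 12 of 32 were below 0, against 49.4% of all genes. Because the members were chosen with earlier results known, these counts describe the list and do not test it.

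C3 had the strongest relation of the members by p-value. It stood at 9479.8, 18737, 24519.9, 15532 and 7153 CPM in Flox 1 to 5 and 8738, 11883, 10640.2, 8126 and 8491 CPM in LKO 1 to 5. Flox 3, 2 and 4 had the 3 highest values, in the same order as their scores, Flox 5 had the lowest, and the groups overlapped. The slope was 0.42 ± 0.049 (SE) log2 units per unit of score, or a 1.34-fold rise (edgeR, adjusted p = 0.000915). The 180 bases before the C3 start site are shown because they hold a match to the C/EBP motif TTGCNNAA, the binding motif of transcription factors that drive acute phase genes. The sequence is that of RefSeq on GRCm38.p6, chr17:57228137-57228316, minus strand, 5′ to 3′, with the match, 45 to 38 bases before the start, in capitals.
C3: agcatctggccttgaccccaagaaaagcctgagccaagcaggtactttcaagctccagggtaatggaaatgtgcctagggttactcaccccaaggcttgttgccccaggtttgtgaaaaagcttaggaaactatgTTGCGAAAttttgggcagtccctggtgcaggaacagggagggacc
Either strand was searched over 250 bases before the start of each promoter in the table, where 9.56% of 32851 promoters hold a match, and 4 of the 24 members with an entry do (C1rl, C1s1, C3 and C9). Of these, C3 was the member that passed the test on the acute phase score. A match is a description of the letters and not evidence of binding.

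Clu (chromosome 14, 65968483 to 65981547), a chaperone that also keeps the attack complex out of membranes, followed the score as closely. It was at 2059, 3298, 3930.1, 2740.1 and 1539.9 CPM in Flox 1 to 5 and 1550.3, 2525, 2284, 2036 and 1673 CPM in LKO 1 to 5. Its order across libraries was almost that of the score, from 3930.1 CPM in Flox 3 down to 1539.9 and 1550.3 CPM in Flox 5 and LKO 1. The slope was 0.33 ± 0.044 (edgeR, adjusted p = 0.00181). C3 and Clu were past the threshold in 18 of 19 alternative fits, each fit without 1 library among them. The exception was the fit blocked on the number in the column header (adjusted p = 0.188 and 0.531). Over the 19 fits their slopes were 0.38 to 0.54 and 0.25 to 0.42.

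Serping1 (chromosome 2, 84765387 to 84775444), the inhibitor of C1r, C1s and the MASPs, was at 854, 1238, 2085, 1456 and 800.2 CPM in Flox 1 to 5 and 733, 1026, 1015, 988 and 776 CPM in LKO 1 to 5. Flox 3 was the highest, and the LKO livers lay between 733 and 1026 CPM. Its slope was 0.32 ± 0.051 (edgeR, adjusted p = 0.00511), and the call was lost without Flox 3 or Flox 5 (adjusted p up to 0.0584). Vtn rose more gently, with a slope of 0.19 ± 0.046 (edgeR, adjusted p = 0.0297) and a range of 2440.2 to 4232 CPM. C4b, the protein that C1s and MASP2 cleave, ranged from 1407 to 2656 CPM with a slope of 0.19 ± 0.051 (edgeR, adjusted p = 0.0436). C2 and Cfb, the catalytic partners of C4b and C3b, had slopes of 0.30 ± 0.062 and 0.27 ± 0.058 (edgeR, adjusted p = 0.0189 and 0.0198), at 14.4 to 36.4 and 2.80 to 5.90 CPM. When 1 library was left out, the slopes stayed at 0.18 to 0.21 for Vtn, 0.18 to 0.22 for C4b, 0.24 to 0.37 for C2, 0.26 to 0.29 for Cfb and 0.23 to 0.30 for Mbl1, while calls were lost. Without Flox 3 or without Flox 5, C3 and Clu alone of the 8 passed, without Flox 1 these and Serping1 did, and C4b was also lost without Flox 2 or LKO 1, 2 or 3. Without Flox 2 and 3 together, C3, Clu and Serping1 kept their call, and with the Kupffer score in the model C3, Clu, Mbl1 and Serping1 did. The slopes of the 8 stayed above 0 in every alternative.

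**Figure D2:**
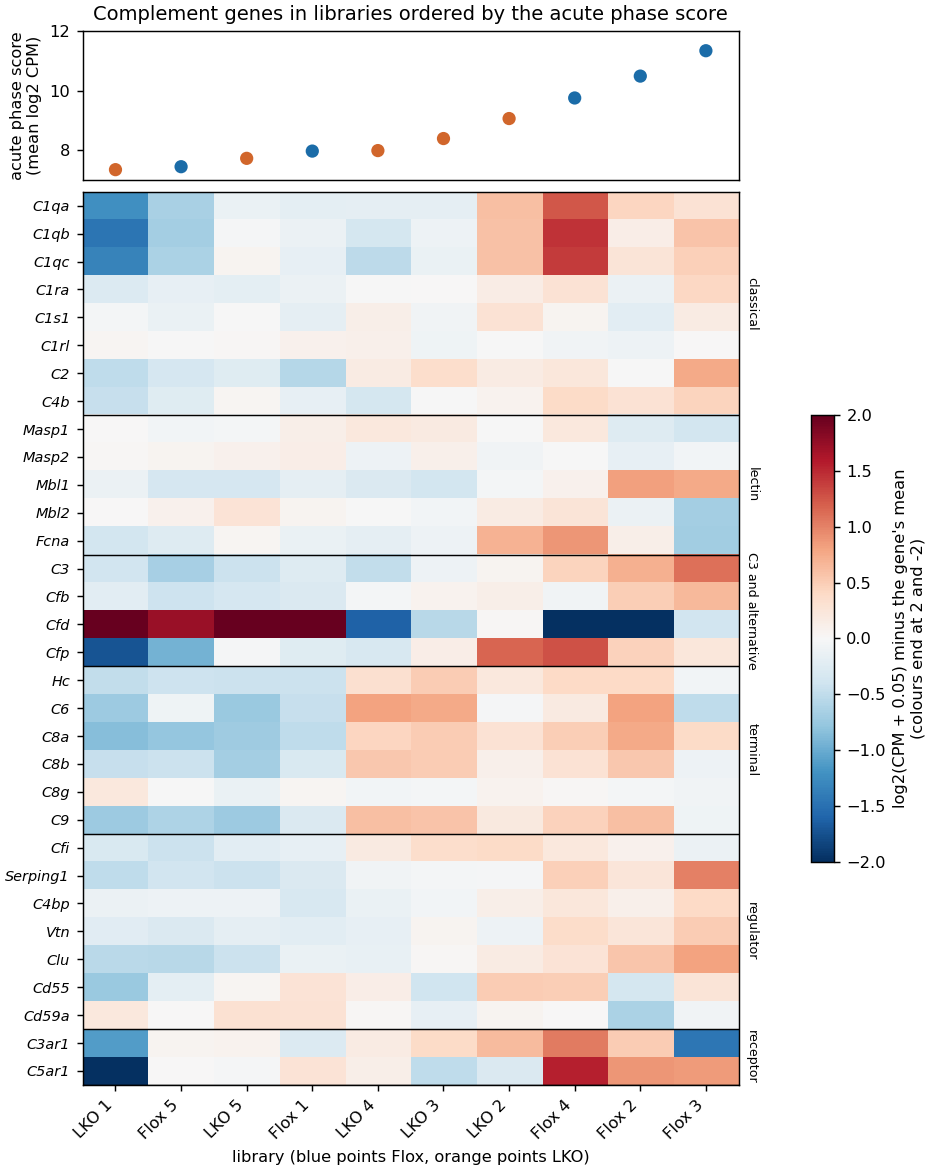
Complement genes by library, with libraries ordered from left to right by the acute phase score (top, mean log2 CPM, blue Flox and orange LKO) and genes grouped by role. Colour gives log2(CPM + 0.05) minus the gene's mean over 10 libraries and ends at 2 and -2. Serping1, Clu and C3 turn from blue to red towards Flox 3, C8g and C1rl stay pale, and the C1q chains are reddest in Flox 4.

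The 2 mannose-binding lectins, which recognise sugars on microbes and share the MASP proteases, differed in their values. Mbl1 (chromosome 14, 41151458 to 41159601) was at 177, 356, 341, 213 and 159.9 CPM in Flox 1 to 5 and 186, 196, 157, 165 and 159 CPM in LKO 1 to 5. Flox 2 and Flox 3 were high, and the other 8 libraries lay between 157 and 213 CPM. Its slope was 0.27 ± 0.055 (edgeR, adjusted p = 0.0168), and 0.13 without Flox 2 and 3 (adjusted p = 0.475). Mbl2 (chromosome 19, 30232942 to 30239687) was at 411, 367, 248, 476 and 421 CPM in Flox 1 to 5 and 397, 447, 381, 394 and 481 CPM in LKO 1 to 5. Here Flox 3 was the lowest library, and the slope was -0.11 ± 0.064 (edgeR, adjusted p = 0.333). When 1 library was left out, the Mbl2 slope ran from -0.13 to -0.0053. Per length, the ratio of Mbl1 to Mbl2 was 0.951 at its highest, against a median of 0.301 and a lowest value of 0.229. The difference between the 2 slopes was not tested.

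The 180 bases before each start site are shown for these 2 genes because the lectins are close relatives with different values in the livers with the highest acute phase scores. They are RefSeq sequences on GRCm38.p6, plus strand, for Mbl1 chr14:41151276-41151455 and for Mbl2 chr19:30232748-30232927. Capitals mark the most similar 40-base block without gaps, in which 34 bases are identical.
Mbl1: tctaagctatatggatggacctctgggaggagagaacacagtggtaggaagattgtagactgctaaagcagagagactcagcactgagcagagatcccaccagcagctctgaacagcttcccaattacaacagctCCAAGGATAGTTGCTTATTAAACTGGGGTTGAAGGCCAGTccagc
Mbl2: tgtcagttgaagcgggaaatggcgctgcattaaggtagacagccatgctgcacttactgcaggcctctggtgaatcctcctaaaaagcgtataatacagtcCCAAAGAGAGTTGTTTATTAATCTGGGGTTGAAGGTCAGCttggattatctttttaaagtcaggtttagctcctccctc
The block lies 45 to 6 bases before the Mbl1 start and 79 to 40 bases before the Mbl2 start. Neither gene holds the C/EBP match in the 250 bases searched. The other motifs searched on either strand were TTCNNNGAA for STAT (7.02% of promoters; C8a and Masp2), GAGGAAGT for PU.1 (2.44%; C1qc), the NF-kB motif (45.8%; 9 of 24 members) and the interferon response element (2.98%; Cd59a). The absence of a match says only that these letters are not in the window.

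The proteases of the lectin pathway were steadier. Masp2 ranged from 136 to 168 CPM, with a slope of -0.052 ± 0.036 (edgeR, adjusted p = 0.43), and Masp1 from 120.0 to 179 CPM. In the classical pathway C1rl, a C1r-like protease, had the smallest spread of the 32 genes, at 159 to 184 CPM (slope -0.024 ± 0.034, edgeR adjusted p = 0.736). C1ra and C1s1, the proteases of the C1 complex, ranged from 254 to 409 and from 251 to 353 CPM. C4bp, the soluble brake on C4b, was just outside the threshold (slope 0.14 ± 0.041, edgeR adjusted p = 0.0592), as was C8a (0.42 ± 0.11, adjusted p = 0.0526), and both passed with DESeq2 (adjusted p = 0.00920 and 0.000946). Cd59a, a membrane protein that blocks C9, had a slope of -0.12 ± 0.057 (edgeR, adjusted p = 0.261).

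The terminal pathway split into 5 genes that varied together and 1 that hardly varied. C8 is made of 3 chains from separate genes. C8a was at 515, 1238, 949, 1029 and 428 CPM in Flox 1 to 5 and 403, 888, 1034, 980.4 and 444 CPM in LKO 1 to 5. Flox 1, Flox 5, LKO 1 and LKO 5 lay at 403 to 515 CPM and the other 6 libraries at 888 to 1238 CPM, with both groups on each side. C8g, in contrast, was at 337, 318, 314, 334 and 325 CPM in Flox 1 to 5 and 379, 344, 319, 317 and 301 CPM in LKO 1 to 5. Its highest value was 1.26 times its lowest, against 3.08 times for C8a and 2.33 times for C8b. Per length, the ratio of C8a to C8g therefore ran from 0.436 to 1.60 over the 10 libraries, and that of C8b to C8g from 0.344 to 0.825. The slope of C8g on the acute phase score was -0.020 ± 0.039 (edgeR, adjusted p = 0.808).

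C9, which forms the ring of the pore, followed the pattern of C8a at 425, 783, 489.6, 715 and 337 CPM in Flox 1 to 5 and 313, 591, 766, 781 and 314 CPM in LKO 1 to 5. Hc, which encodes C5, ranged from 632 to 1266 CPM and C6 from 87.4 to 257 CPM. Among C6, C8a, C8b, C9 and Hc, the 10 pairwise Pearson correlations of log2 CPM over the 10 libraries ran from 0.76 to 0.98 (median 0.94), against a median of 0.33 over all 496 pairs of members. C8g had correlations of -0.32 to -0.18 with the same 5 genes. These values share their libraries and are given as a description. None of the 6 terminal genes passed the test on the acute phase score by edgeR.

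**Figure D3:**
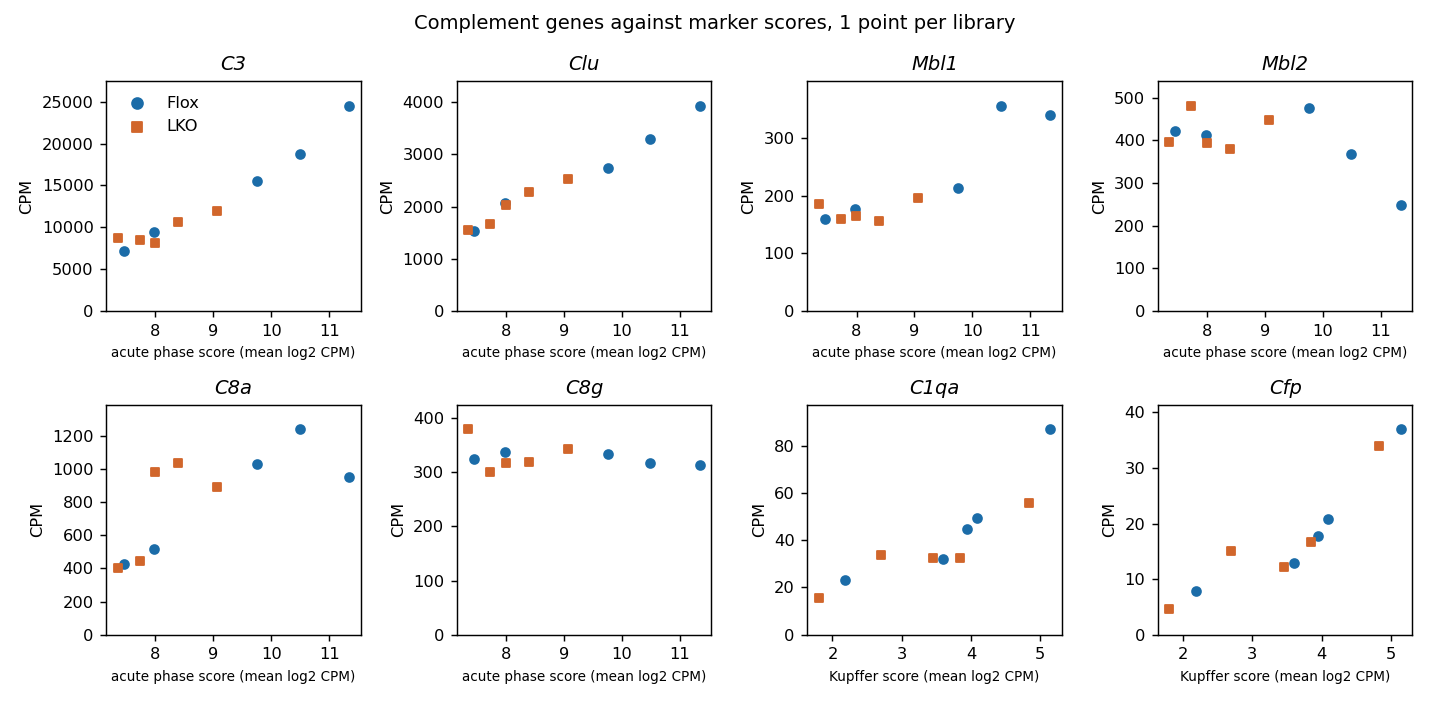
Values of 8 complement genes (CPM, axes from 0) in 10 libraries, against the acute phase score for 6 genes and the Kupffer score for C1qa and Cfp. Blue circles are Flox and orange squares LKO. C3 and Clu climb along the acute phase score, Mbl2 and C8g do not, and C1qa and Cfp are highest in Flox 4 at a Kupffer score of 5.14.

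C1q, the macrophage-made recognition protein of the classical pathway, followed the Kupffer markers. Its 3 chains are encoded side by side on chromosome 4 (C1qb from 136880129, C1qc from 136889804 and C1qa from 136895917, all on the minus strand). C1qa was at 32.1, 49.4, 44.9, 87.00 and 23.4 CPM in Flox 1 to 5 and 15.7, 55.95, 32.4, 32.5 and 33.6 CPM in LKO 1 to 5. C1qb ranged from 11.1 to 83.8 CPM and C1qc from 12.8 to 85.3 CPM. Flox 4 was the highest library and LKO 1 the lowest for each chain, as for the summed Kupffer markers (717 and 90.5 CPM). The chains kept a near-constant proportion while their level changed over 5-fold. Per length, C1qa made up 44.0% ± 3.0 of the 3 chains, C1qb 35.1% ± 2.3 and C1qc 20.9% ± 1.2 (SD, n = 10), and their pairwise Pearson correlations were 0.98 to 0.99. In bulk RNA, fewer macrophages and less of the transcript per macrophage cannot be told apart.

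In the fit on the Kupffer score, with the group in the model, 3 of the 32 members rose and 0 fell by edgeR's quasi-likelihood test, where 0.214% of all genes rose and 0 genes fell. Of the members, 5 of 32 had a slope below 0, against 49.5% of all genes. Of the 34 genes that rose, 5 were markers in the score itself. Cfp, encoding properdin, which stabilises the alternative C3 convertase, had a slope of 0.79 ± 0.092 (edgeR, adjusted p = 0.00666), from 4.57 CPM in LKO 1 to 36.96 CPM in Flox 4. C1qa had 0.58 ± 0.073 (adjusted p = 0.0108) and C1qb 0.63 ± 0.10 (adjusted p = 0.0401). C1qc, at 0.59 ± 0.10, did not pass by edgeR (adjusted p = 0.0582) but did by DESeq2 (adjusted p = 3.28e-05). When 1 library was left out, the slopes stayed at 0.70 to 0.86 for Cfp, 0.52 to 0.62 for C1qa and 0.54 to 0.69 for C1qb, while calls were lost: none of the 3 passed without Flox 4 or without LKO 2, Cfp alone passed without Flox 5 or LKO 1, and C1qb was lost without Flox 1, LKO 3 or LKO 4. With the acute phase score in the model none passed either (adjusted p from 0.137 to 0.299), although the slopes were 0.56, 0.60 and 0.78 for C1qa, C1qb and Cfp.

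The slopes of the other macrophage-made members were also above 0. Fcna, ficolin A, a lectin of Kupffer cells, had a Kupffer slope of 0.32 ± 0.10 (edgeR, adjusted p = 0.262). C3ar1 and C5ar1 had slopes of 0.41 ± 0.18 and 0.55 ± 0.24 (adjusted p = 0.454 and 0.462) at 0.480 to 2.93 and 0.0222 to 1.48 CPM. The hepatocyte-made genes with the smallest p on this score were Cfi (0.24 ± 0.055, adjusted p = 0.124), C8a (0.50 ± 0.12, 0.153), C9 (0.43 ± 0.12, 0.217) and Hc (0.31 ± 0.088, 0.218), none of which passed by edgeR, whereas all 4 did by DESeq2. On this score DESeq2 called 358 of 15894 genes, against 34 by edgeR. C3 and Clu had Kupffer slopes of 0.28 ± 0.14 and 0.30 ± 0.10 (edgeR, adjusted p = 0.515 and 0.322). On the acute phase score, conversely, C1qa, C1qb, C1qc and Cfp had slopes of 0.39 ± 0.15, 0.41 ± 0.18, 0.40 ± 0.18 and 0.52 ± 0.22 and edgeR adjusted p of 0.182, 0.232, 0.224 and 0.205. Without Flox 2 and 3, whose acute phase scores were highest, these 4 genes and Fcna passed that test, with slopes of 0.83, 0.91, 0.87, 1.09 and 0.53 (edgeR, adjusted p = 0.00317, 0.0116, 0.0181, 0.0195 and 0.00998). In that fit 266 of all 16551 genes tested rose and 43 fell. With the Kupffer score in the model, the acute phase slopes of C1qa, C1qb, C1qc and Cfp were 0.026, 0.032, 0.039 and 0.012 over all 10 libraries. DESeq2, with the acute phase score alone and the group, called C1qa and C1qc (adjusted p = 0.0192 and 0.0292) but not C1qb or Cfp. It called 1915 genes there, against 979 by edgeR.

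**Figure D4:**
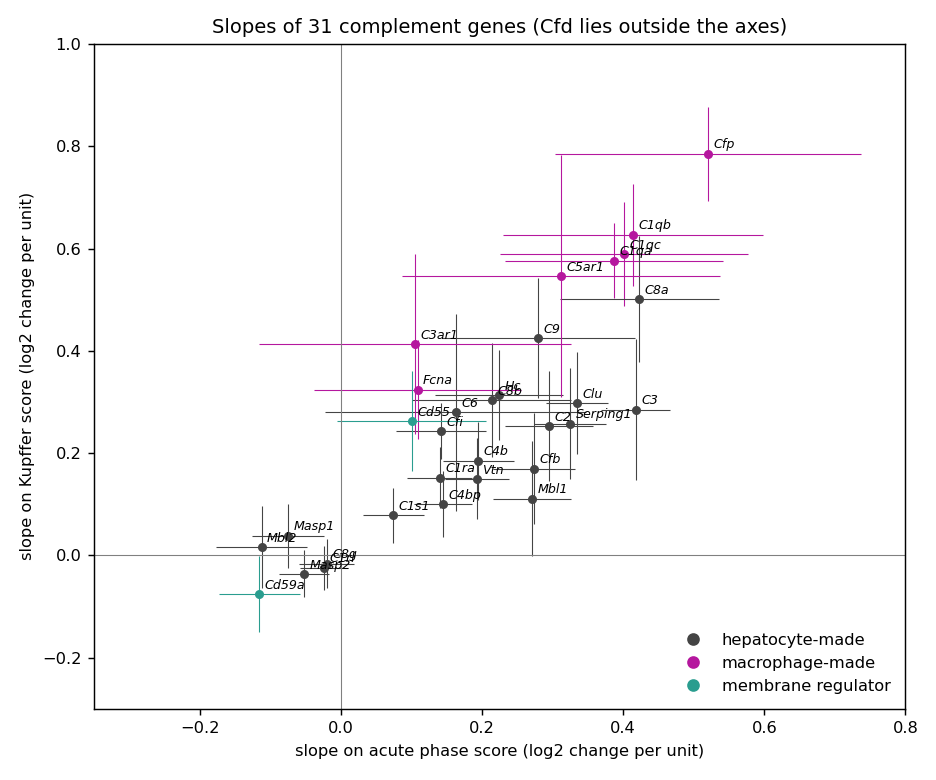
Slopes of 31 complement genes on the acute phase score (horizontal) and on the Kupffer score (vertical), in log2 units per unit of score from separate fits with the group in the model. Bars are SE, and colour gives the textbook source of the transcript. Macrophage-made Cfp and the C1q chains are highest on the vertical axis, C3 and C8a are farthest right among hepatocyte-made genes, and Cfd lies outside the axes at -1.02 and -1.23.

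Cfd encodes factor D, or adipsin, the protease that activates factor B, and is known mainly from fat cells. It was at 10.6, 0.243, 1.55, 0.174 and 6.89 CPM in Flox 1 to 5 and 8.87, 2.07, 1.38, 0.634 and 10.97 CPM in LKO 1 to 5. The highest library had 62.9 times the level of the lowest. Flox 1, Flox 5, LKO 1 and LKO 5 were at 6.89 to 10.97 CPM and the other 6 libraries at 0.174 to 2.07 CPM, so the variation crossed the groups. The same libraries were the lowest in C8a, and they carry the column numbers 1 and 5 in both groups. What a shared column number stands for is not given, and its part in these values was not tested. The adipocyte markers Adipoq, Plin1, Retn and Lep summed to at most 0.732 CPM in any library, and Adipoq did not exceed 0.131 CPM. None of these markers passed the filter on low counts. Retn was highest in the libraries where Cfd was high, at 0.448, 0.219, 0.621 and 0.187 CPM in Flox 1, Flox 5, LKO 1 and LKO 5. It was at 0 to 0.127 CPM in the other 6. Adipoq, Plin1 and Lep did not share this order, and the part of fat cells in the Cfd values was not tested. The slope of Cfd on the acute phase score was -1.02 ± 0.40 (edgeR, adjusted p = 0.189) and on the Kupffer score -1.23 ± 0.52 (adjusted p = 0.478).

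Loss of Arg2 from hepatocytes was the comparison the study was designed for, and no complement gene passed it. By edgeR's quasi-likelihood test 0 of the 32 members and 0 of all genes (0%) differed between LKO and Flox at an adjusted p under 0.05. At an unadjusted p under 0.05 there were 2 members, C5ar1 and Mbl1, both lower in LKO, while 4.33% of all genes were lower and 3.17% higher at that level. DESeq2 also called 0 members, against 11 genes of the 8184 to which it gave an adjusted p, out of 15894. It gave none to C5ar1. By DESeq2, 4 members had an unadjusted p under 0.05, against 1380 of all genes. For no member were the groups without overlap, compared with 0.535% of all genes higher and 0.371% lower without overlap. The members' median log2 fold change was -0.10, against -0.0081 over all genes, and 19 of 32 were below 0, against 51.6% of all genes. All 7 macrophage-made members were below 0 (median -0.48), as were 11 of the 22 hepatocyte-made ones.

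C5ar1, the receptor for the anaphylatoxin C5a, had the largest difference, at 0.584, 0.911, 0.895, 1.48 and 0.475 CPM in Flox 1 to 5 and 0.0222, 0.380, 0.317, 0.516 and 0.468 CPM in LKO 1 to 5. The lowest LKO value rests on 1 count. Markers of recruited macrophages and monocytes summed to 5.82 to 13.3 CPM in Flox and 3.33 to 6.27 CPM in LKO. Neutrophil markers summed to 0.658 to 16.2 CPM in Flox and 1.53 to 17.7 CPM in LKO. The part of either list in the C5ar1 difference was not tested. The log2 fold change was -1.34 ± 0.52 (SE; edgeR, adjusted p = 0.652). C3 averaged 9576 ± 1615 CPM in LKO against 15084 ± 7016 CPM in Flox (± SD over 5 libraries), for a difference of -0.66 ± 0.30 (edgeR, adjusted p = 0.652). Mbl1 averaged 173 ± 17.4 CPM in LKO against 249 ± 92.6 CPM in Flox (log2 difference -0.53 ± 0.22, adjusted p = 0.652). Serping1, Clu, C4b and Vtn had log2 fold changes of -0.50 ± 0.25, -0.43 ± 0.25, -0.30 ± 0.18 and -0.28 ± 0.17. C2 and Cfb, which also rose with the acute phase score, were at -0.070 and -0.21. The mean acute phase score was 9.40 in Flox and 8.11 in LKO. With that score in the model the LKO difference of C3 was 0.012, of Clu 0.058 and of Vtn 0.0042. In the same fit Serping1 was at -0.012, Mbl1 at -0.10 and C5ar1 at -0.91. The part of the score in the LKO differences was not tested. The C1q chains C1qa, C1qb and C1qc had log2 fold changes of -0.48 ± 0.39, -0.59 ± 0.44 and -0.57 ± 0.43 (edgeR, adjusted p = 0.74, 0.717 and 0.716), with a Kupffer score of 3.79 ± 1.07 in Flox and 3.33 ± 1.15 in LKO (SD, n = 5 each). Without Flox 4 the C1qa, C1qb and C1qc values were -0.14, -0.18 and -0.18, without LKO 1 -0.29, -0.38 and -0.38, and without LKO 2 C1qa was at -0.73. Without Flox 3, C3 was at -0.41, Serping1 at -0.26, Clu at -0.26 and Vtn at -0.17.

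**Figure D5:**
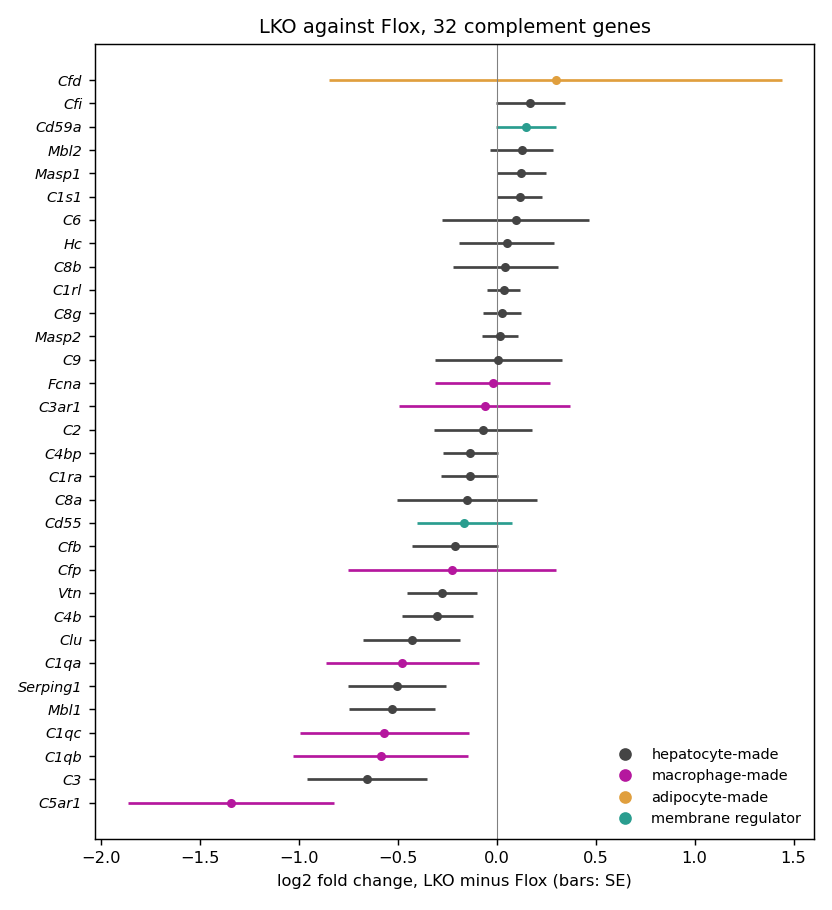
Log2 fold change of each of the 32 complement genes, LKO minus Flox, with bars of 1 SE and colour by textbook source. C5ar1 lies lowest at -1.34, none of the 32 passed the test, and Cfd has the widest bar.

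Among 29 further complement genes listed for this description, 24 were tested and 3 rose and 3 fell with the acute phase score (edgeR, adjusted p under 0.05), where 2.58% of all genes rose and 3.58% fell. C4a, the close copy of C4b, rose by 0.23 ± 0.052 per unit (edgeR, adjusted p = 0.0248). The collectins Colec11 and Colec10, lectins that also engage MASPs, had slopes of -0.33 ± 0.062 and -0.40 ± 0.074 (edgeR, adjusted p = 0.0114 and 0.0114). Colec10 was at 15.2, 8.48, 3.84, 9.81 and 13.4 CPM in Flox 1 to 5 and 18.6, 13.5, 11.6, 15.8 and 19.3 CPM in LKO 1 to 5, lowest in Flox 3 and Flox 2. Also past the threshold, Cpn2 (higher, 0.15 ± 0.040) and Colec12 (lower, -0.22 ± 0.053), lie outside the rule for naming genes and were chosen after their values were seen. Over the 19 alternative fits the direction of these 5 held. Colec10 kept its call in 15, Colec11 in 14, C4a in 13, Colec12 in 10 and Cpn2 in 4. None of the 5 passed without Flox 3, Colec10 alone did without Flox 5 and Colec11 alone without Flox 1. No gene of this list passed on the Kupffer score, where Itgam, a chain of complement receptor 3, was nearest (0.79 ± 0.15, edgeR adjusted p = 0.0761), followed by its partner Itgb2 (0.70 ± 0.15) and the Kupffer cell receptor for C3b, Vsig4 (0.58 ± 0.14). None passed for LKO against Flox either, where Itgax, a chain of complement receptor 4, had the smallest p (-1.25 ± 0.43, edgeR adjusted p = 0.652).

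The level of the clock gene Dbp was also read, since it ranged from 0.798 to 111 CPM. The level of this single gene does not give the phase of the liver's daily clock. A fit on the log2 CPM of Dbp, with the group in the model, was added after the members' values were seen. In it edgeR called 0 of the 32 members, where 0.0692% of all genes rose and 0.132% fell. At an unadjusted p under 0.05 by edgeR there were 0 members, against 1112 of all 15894 genes. DESeq2 also called 0 members, against 180 genes, with 1 member and 1248 of all genes at an unadjusted p under 0.05. Of the members, 11 of 32 had a slope below 0, against 50.4% of all genes.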

How the data were processed

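The authors deposited whole-number read counts per Ensembl gene, with a column for each library. Build GRCm38, featureCounts 1.4.6-p5 of Subread, STAR 2.5.1a and bcl2fastq are listed, per the submitters' processing notes. No source used here states the annotation release, the strand setting or how shared reads were treated. Of 55774 lines, 287 repeated an identifier with identical counts and were dropped. The 5 LKO columns were used as members of their group, since their numbers match no title.

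Genes were filtered with filterByExpr, scaled by TMM (factors 0.963 to 1.04) and tested with edgeR 4.0.16 (R 4.3.3, robust quasi-likelihood, two-sided, Benjamini-Hochberg over 15894 genes, threshold 0.05). Fits were LKO against Flox, and slopes on the acute phase and Kupffer scores with group as a covariate. SE came from the F statistic. Log2 CPM used a prior count of 2. TPM used GENCODE M21 exon unions. Alternatives were DESeq2 1.42.0, limma-voom 3.58.1, library totals, no filter, other covariates and leaving out libraries. Tests were checked on simulated data. The floor of 3 counts reflects counting error alone. Named genes were all members, and up to 4 other complement genes per fit. Some of the latter are not reported here. The members, lists and scores were chosen with earlier results of these data known. The fits without Flox 2 and 3, with Dbp and with a block were chosen after seeing the data.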

Additional observations from a re-analysis of the deposited data

Results flagged for a closer look

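Of 64 groups of 5 values (32 genes in Flox and in LKO), 1 held a value far from the others, where chance gives about 1 in 20. C5ar1 in LKO 1 was at 0.0222 CPM, from 1 count, against 0.317 to 0.516 CPM in the other 4 LKO libraries. The gap to its neighbour was 0.798 of the group's range in log2 CPM. LKO 1 was also the library with the lowest summed Kupffer markers (90.5 CPM), and the part of this in the value of C5ar1 was not tested.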

How the results depend on the processing

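The labels number the Flox libraries 1 to 5 and the LKO libraries 6 to 10, but the column headers number both groups 1 to 5. Libraries with the same header number had correlations of their deviations from the group means of 0.074 to 0.35 over genes. These were above 0.1 in 2 of 5 pairs, at 0.35 for number 1 and 0.29 for number 5. Of the 10 libraries, 4 correlated best with their own number, namely Flox 1, LKO 1, Flox 5 and LKO 5. These values do not settle whether a shared number marks a pair, and the fits reported treat the libraries as unpaired. With that number as a replicate block, a fit added after the data were seen that leaves 3 residual degrees of freedom for the slopes, 0 genes were called for LKO against Flox, 28 genes and 0 members for the acute phase score and 0 genes and 0 members for the Kupffer score. In it 12 of 32 members had an acute phase slope below 0, against 7 in the fit reported and 50.6% of all genes. The members' median slope was 0.11. Among the member slopes printed here, those of C8a, Cfd, C1rl, Cd59a and Fcna on the acute phase score changed sign, to -0.045, 0.0006, 0.015, 0.075 and -0.041. The Kupffer slope of Cfd also did, to 0.45. For LKO against Flox, edgeR called 0 genes and 0 members in every fit run, each fit without 1 library included, and DESeq2 called 11 genes and 0 members. When the acute phase score was added to that model, 4 of the 10 member values printed changed sign, to 0.012 for C3, 0.058 for Clu, 0.0042 for Vtn and 0.013 for C1qa. For the acute phase score, 979 genes were called in the fit reported, 1915 by DESeq2, 2118 without the group term, 510 with the Kupffer score in the model and 309 without Flox 2 and 3, and 155 to 1072 when 1 library was left out. Members called were 8 in the fit reported, 12 by DESeq2 (C1qa, C1qc, C4bp and C8a gained), 2 to 9 when 1 library was left out and 4 with the Kupffer score in the model. The slope of Mbl2 was 0.068 without Flox 2 and 3, and that of Fcna -0.24 with the Kupffer score in the model. For the Kupffer score, 34 genes were called in the fit reported, 358 by DESeq2, 100 with no filter, 1 with the acute phase score in the model and 2 to 119 when 1 library was left out. Members called were 3, 8 by DESeq2, 0 with the acute phase score in the model and 0 to 4 when 1 library was left out. The slope of C3 on the Kupffer score was -0.037 with the acute phase score in the model. The fit on Dbp called 32 genes, and 180 by DESeq2. The causes of these changes were not tested. Summed by the longest transcript of each gene, the members' share was 1.74% of TPM. With 5 libraries a group, small differences are within the error, and Cfd, with an SE of 1.14 for LKO against Flox, is the least precise member.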

Other observations

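Cfd varied against the terminal pathway. Its log2 CPM had Pearson correlations of -0.91 to -0.76 with C6, C8a, C8b, C9 and Hc over the 10 libraries, noticed after the values were seen and given as a description. The libraries high in Cfd and low in C8a were those with column number 1 or 5 in both groups. The part of the column number in these correlations was not tested.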
